A study of Homo sapiens with 66 samples.

Results

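Editing cluster regions (ECRs) are stretches of the genome in which adenosines of RNA are edited to inosine at many closely spaced sites, extended by 1000 bases on each side and merged where they overlap. The regions described here are the ECRs wholly inside introns: each interval lies inside a GENCODE gene on GRCh37 and overlaps no exon of any basic transcript. They are 766 of the 2875 ECRs of study 1. Of the others, 864 overlapped a 3′ UTR, 999 overlapped other exons, 158 lay outside genes, 7 crossed the end of a gene without touching an exon, and 81 were on contigs without annotation. The intronic ECRs lay in 617 host genes, 662 of them in protein-coding genes, and 579 also overlapped no exon of any transcript outside the basic set. Several members can share a gene, since 108 host genes held 2 or more, with a maximum of 6 in DLEU2.

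RNA was measured in THP-1, a human monocytic leukemia line with a Cas9 transgene, after nucleofection of guide RNA (gRNA). Study 1 used a clone that lacks STING and gave 48 libraries of total RNA, 3 per group. The groups were cells with nontarget gRNA (CTRL), with gRNA against GFP, ADAR or HNRNPC, and with gRNAs against both genes (ADAR+hnRNPC), each on days 3, 4, and 5, and CTRL cells given IFN-α, taken on day 4. Study 2 used a wild-type clone on day 4, with other gRNAs, and gave 18 libraries, 2 per group, of total RNA and of the digitonin-soluble, cytosol-enriched RNA of cells with nontarget gRNA, with gRNA against ADAR or HNRNPC, and with both, and of the insoluble, nuclear-enriched RNA of hnRNPC-targeted cells. All groups of a study carry the Cas9 transgene and come from 1 clone, and all of study 1 lacks STING. Cells were targeted as pools, so a group can mix edited and unedited cells. The labels do not say whether replicates were separate cultures, while the study describes the sequenced replicates as independent experiments, and p-values measure the spread between these libraries. In bulk RNA, fewer cells with a transcript and less of it per cell cannot be told apart.

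ADAR is the enzyme that converts adenosine to inosine in double-stranded RNA. In human transcripts such RNA forms mostly where copies of the Alu repeat lie near each other in opposite orientation, and most of these copies are in introns and 3′ UTRs. hnRNPC is a nuclear protein that binds runs of uridine in pre-mRNA, among them the run in antisense Alu elements, and is known to keep splicing factors from cryptic exons there. MDA5, a cytosolic sensor, recognizes long double-stranded RNA and induces type I IFN.

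The density of edited adenosines that passed the study's site filter differed between members. In windows of up to 300 bases around the densest sites, read on the strand of the host gene in the GRCh37 reference, VOPP1 ECR 1 held 35 in 300 bases and PCCB 27 in 227 bases, whereas PPP6C held 3 in 120 bases, none of them in a cluster. All 9492 sites of the intronic ECRs that were checked against the reference, both studies counted, lay at an A on their own strand. This set is larger than that of the sites with a value in every library, which are counted below.

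Intronic ECRs were 2010 to 10970 bases long (median 2113), and the longest lay in TRIT1, a gene for a tRNA-modifying enzyme. Their median distance to the nearest basic exon was 1011 bases (range 6 to 224373), and 378 lay within 1000 bases of one. In features of sequence they were close to ECRs in general. In the middle 2000 bases, the median GC content was 42.95%, an inverted match of at least 100 bases was found in 66.1% (65.6% of all ECRs on annotated chromosomes), and a run of 9 T on either strand in 87.2% (86.9% of all). The inverted matches had a median length of 289 bases and a median identity of 77.2%. On the strand of the host gene, 510 members held a run of 9 U (UUUUUUUUU in the RNA). Such a match describes the letters and not a bound site.

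In study 1, 332 members held 3436 retained sites (sites past the study's filter, in clusters of 5 or more with gaps of up to 50 bases, with a value in every library), and 434 held none. Since every ECR was defined by a cluster of sites, the filter as applied here to the deposited sites did not recover the clusters of those 434, and sums of editing leave them out. The median was 7 sites per member with sites, and VOPP1 ECR 1 had 153, the most. Of the sites, 90.3% lay on the strand of the host gene. In 301 members all sites did, and in 30 members, TRIT1 among them, none did. In study 2, 345 members held 5020 sites, 89.3% of them on the host strand. Since 31 members lie inside genes of both strands and the counting is not stated to use strand, reads from the 2 genes cannot be told apart there.

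Most intronic ECRs were at low levels. Levels are given as CPM, the count on a member per 1000000 gene counts of the library. The median over members of the mean CPM was 2.45 in study 1 and 2.29 in study 2, and TRIT1 was highest (248 and 363 CPM). The 10 members with the most counts held 16.2% of the members' counts in study 1 and 21.2% in study 2. With an average log2 CPM of 4.5 or more required, on CPM scaled to ECR totals, 626 of the 766 members were tested in study 1 and 588 in study 2. Scaled to gene totals, the same limit would keep 8 and 6 members. The 140 and 178 others were too low, with 1 and 3 of them at 0 counts in every library.

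Libraries of study 1 had 95107690 to 152829008 counts on genes and 255045 to 582048 on intronic ECRs, 3.61 to 7.03% of the ECR counts. Libraries of study 2 had 49666958 to 73873756 and 131256 to 262049, 3.63 to 8.02%. The myeloid genes CD33 (49.2 to 71.5 CPM), SPI1 (43.8 to 71.3), and LYZ (74.5 to 580) were found in every library of study 1, while CD14 (0.0967 to 4.22) was low and CD68 (0 to 0.284) near absent. The T cell, epithelial, and erythroid genes CD3E, EPCAM, and HBB stayed at or below 0.110 CPM. Some myeloid genes differed between gRNA groups. On day 5, CD14 was at 0.0967 to 0.268 CPM in CTRL, 0.247 to 0.507 in ADAR-targeted, 2.59 to 3.99 in hnRNPC-targeted, and 3.50 to 4.22 in doubly targeted cells, and ITGAM, an integrin of myeloid cells, at 13.5 to 16.5, 19.4 to 24.1, 31.5 to 37.5, and 76.9 to 78.3 CPM in the same order. Their part in the ECR results of day 5 was not tested. HNRNPC had 310 to 447 CPM in libraries of study 1 with a gRNA against it and 725 to 847 without. ADAR mRNA overlapped between ADAR-targeted (349 to 395 CPM) and CTRL cells (364 to 421) in study 1, and was 1055 to 1315 CPM with IFN-α and 1197 to 1617 on day 5 when both genes were targeted. In study 2, total RNA of ADAR-targeted cells had 433 to 562 CPM of ADAR and that of CTRL cells 843 to 961. Replicate 2 of the CTRL total RNA of study 2 stood apart, with 4543 CPM over the intronic ECRs, 3010 CPM of the nuclear RNA MALAT1, and 172 CPM of mitochondrial MT-ND1, beside 3176, 1128, and 36.4 CPM in replicate 1.

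The comparison of hnRNPC-targeted with CTRL cells asked which intronic ECRs change when this pre-mRNA binding protein is lost. A group of intronic ECRs rose on each day, and others fell, most of them on day 5. Tests ran over all 2528 ECRs that passed the filter, by the quasi-likelihood test of edgeR with Benjamini-Hochberg adjustment, and an ECR was called where its level changed by 1 or more on the log2 scale, in either direction, with adjusted p values up to 0.05. On day 3, 65 intronic ECRs were higher and 1 lower, with 5.26% of all ECRs called higher and 0.435% called lower. On day 4, 71 were higher and 4 lower (6.01 and 1.19% of all ECRs). On day 5, 57 were higher and 25 lower (5.5 and 3.64% of all ECRs). The filter takes the average over all libraries, so a member can pass through the groups in which it is high, and without it 97, 105, and 87 of 765 members were higher on the 3 days and 1, 5, and 28 lower.

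As a share of those tested, 10.4, 11.3, and 9.11% of intronic ECRs were called higher on days 3, 4, and 5, against 2.06, 2.54, and 2.30% of ECRs that overlap a 3′ UTR and 18.3, 19.1, and 15.7% of ECRs outside genes. The median log2 fold change of the intronic ECRs was 0.33, 0.25, and 0.02 on the 3 days, and that of all ECRs 0.15, 0.12, and −0.02. The day 5 median of the members was −0.04 with DESeq2 and its size factors, and with ECR totals as library sizes the day 3 median of all ECRs was 0.03. On day 3, 84.3% of the members were above 0, and on day 5, 51.6%. A total of 46 members were higher on every day and 82 on at least 1 day, in 76 host genes. Of the members lower on at least 1 day, 26 in 24 host genes, HELLS ECR 2 alone was lower on every day. For these counts over days the share of all ECRs was not taken, so they describe the members only. Among the members called on day 5, 53 of the 57 higher and 11 of the 25 lower ones had no overlap of the hnRNPC and CTRL libraries on any day, beside 88.5 and 69.6% of all ECRs called on that day. As the call was made on the libraries of day 5, this count is a description. Of all tested ECRs, called or not, 17.7% were without overlap in the higher and 9.02% in the lower direction.

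The members named next were chosen by rule, among the 8 higher and 4 lower ones with the largest day 5 change among those without overlap. Their day 5 size and the separation of their libraries on every day are thus part of the choice. The intronic ECR of PPP6C, the catalytic subunit of protein phosphatase 6 (chr9:127936079-127938109, 2620 bases from the nearest basic exon), was near absent in CTRL cells. Its CPM in CTRL libraries of days 3, 4, and 5 was 0.356, 0.192, and 0.111, then 0.202, 0.193, and 0.118, then 0.328, 0.193, and 0.181. In hnRNPC-targeted libraries it was 3.57, 3.30, and 2.68, then 5.82, 3.79, and 4.23, then 6.68, 6.59, and 6.38 CPM. On each day every hnRNPC library was above every CTRL library, as the rule required. The log2 fold change was 3.86, 4.76, and 4.81 on days 3, 4, and 5 (standard error 0.341 and adjusted p = 1.4e-14 on day 5 from the quasi-likelihood test of edgeR with Benjamini-Hochberg adjustment). Counts on the exons of PPP6C did not rise, with log2 fold changes of −0.04, −0.24, and −0.63.

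The ECR of BRD8, a bromodomain subunit of the NuA4 histone acetyltransferase complex (chr5:137507963-137512562), had 35 retained sites, all on the host strand. It had 0.684 to 1.30 CPM in the 9 CTRL libraries and 7.39 to 18.2 in the 9 hnRNPC libraries, with 15.9, 15.1, and 18.2 on day 5. Its log2 fold change was 3.29, 4.02, and 3.93 (day 5 standard error 0.311, adjusted p = 2.92e-13 from the quasi-likelihood test of edgeR with Benjamini-Hochberg adjustment). The exons of BRD8 were at 0.34, 0.57, and 0.55 on the log2 scale. In hnRNPC libraries its sites had 756 to 1750 reads and 22.3 to 34.3% editing, and in CTRL libraries 21 to 122 reads, so its editing was not tested between groups.

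RCN3, which encodes a calcium-binding protein of the endoplasmic reticulum, had the largest rise of exons among the higher members named here. The ECR went from 0.64, 0.311, and 0.436 CPM in CTRL cells to 6.29, 4.93, and 5.96 in hnRNPC-targeted cells on day 5, a log2 fold change of 3.63 beside 2.10 for the exons. CASP8AP2 encodes a nuclear protein that binds procaspase-8 and acts in histone gene transcription. Its ECR went from 4.35, 2.65, and 3.98 CPM in CTRL cells to 18.1, 20.3, and 22.8 on day 5, a log2 fold change of 2.48 beside 0.55 for the exons. Both members separated the groups on every day, as the rule of choice required.

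Further higher members lay in MARS1, the cytosolic methionyl-tRNA synthetase, MORC3, a nuclear ATPase of the MORC family, and DGKD, a diacylglycerol kinase. Their log2 fold changes on day 5 were 2.65, 2.43, and 2.42 and those of their exons −0.41, 0.36, and 0.09. On day 3, DGKD had a log2 fold change of 1.04, MORC3 of 1.80, and MARS1 of 2.10. In MARS1, CTRL cells had 0.975, 0.394, and 0.630 CPM on day 5, hnRNPC-targeted cells 4.51, 3.46, and 4.56, and ADAR+hnRNPC-targeted cells 11.9, 10.6, and 12.1. The doubly targeted libraries of MARS1 were thus above the hnRNPC libraries, while in PPP6C (5.21, 4.14, and 4.12 CPM) and BRD8 (11.5, 11.2, and 10.6 CPM) they were below.

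Of 6 listed genes with introns that the study examined, BRD8 and the following 2 held members. The ECR of MIGA1, a mitochondrial outer membrane protein that acts in mitochondrial fusion, had 2.47 to 2.97 CPM in the 9 CTRL libraries and 12 to 16.0 in the 9 hnRNPC libraries. Its log2 fold change was 2.22, 2.45, and 2.42 (day 5 standard error 0.121, adjusted p = 5.29e-19 from the quasi-likelihood test of edgeR with Benjamini-Hochberg adjustment), beside 0.25, 0.23, and 0.22 for the exons. The ECR of PSPH, the last enzyme of serine synthesis, had 2.22, 2.31, and 2.09 CPM in CTRL cells on day 5 and 6.02, 6.02, and 5.03 in hnRNPC-targeted cells. Its log2 fold change was 1.18, 1.37, and 1.37. PSPH has a pseudogene on the same chromosome, and how far the counting of uniquely mapped reads separates the copies was not tested. By the rule used here, no intronic ECR lay in TMEM116, MYB, or NKRF. An ECR of these genes that overlaps a basic exon of the annotation used would fall in another class.

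In the 4 lower members the mean level of hnRNPC-targeted cells was lower on each later day. The ECR in PCCB, a subunit of the mitochondrial propionyl-CoA carboxylase, was the most precisely measured. It had 9.53, 9.26, and 9.34 CPM in CTRL cells on day 3 and 10.1, 11.2, and 11.3 on day 5, and 6.63, 5.94, and 6.16 and then 3.2, 3.18, and 3.34 in hnRNPC-targeted cells. The log2 fold change was −0.59, −1.17, and −1.75 (day 5 standard error 0.0964, adjusted p = 1.17e-17 from the quasi-likelihood test of edgeR with Benjamini-Hochberg adjustment), beside −0.38, −0.55, and −0.79 for the exons. ECR 2 of HELLS, a chromatin remodeling helicase, had 5.18, 5.71, and 4.06 CPM in CTRL cells and 1.44, 1.62, and 1.28 in hnRNPC-targeted cells on day 5, a log2 fold change of −1.78 beside −1.30 for the exons. It also lies within the noncoding gene ENSG00000244332, and reads of the 2 genes cannot be told apart there.

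XYLB, a xylulose kinase gene, had 1.72, 2.06, and 1.52 CPM in CTRL cells and 0.380, 0.495, and 0.679 in hnRNPC-targeted cells on day 5, a log2 fold change of −1.77. ECR 2 of the noncoding gene LINC02256 had 9.18, 9.23, and 8.01 CPM and then 1.80, 2.40, and 2.41, a log2 fold change of −2.0. None of its 9 retained sites lay on the strand of LINC02256, and counts on the exons of that gene were at 0.24.

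Across all called members the exons of the host gene mostly did not pass the test. The 65 members higher on day 3 had 58 tested hosts, of which 1 was higher and none lower. On day 4, 1 of 64 hosts was higher and 1 lower, and on day 5, 3 of 51 were higher and none lower. Among members not called, 2 of 511, 6 of 502, and 5 of 497 hosts were higher on days 3, 4, and 5, and 4, 9, and 18 were lower. These shares were not tested against each other. The median log2 fold change of the called members was 1.24, 1.40, and 1.51 on the 3 days and that of their hosts 0.07, 0.09, and 0.06. Members that were lower on day 5 differed in this respect, since 7 of their 22 tested hosts were lower as well, with medians of −1.30 for the ECRs and −0.56 for the hosts.

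Members with a run of 9 U on the host strand were called higher in larger shares. On day 3, 58 of 412 tested members with such a run (14.1%) and 7 of 214 without (3.27%) were higher. The numbers were 59 (14.3%) and 12 (5.61%) on the fourth day and 49 (11.9%) and 8 (3.74%) on the fifth. The medians of days 3, 4, and 5 were 0.38, 0.31, and 0.10 with and 0.26, 0.12, and −0.05 without a run. These shares are a description, and the difference was not tested.

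Host genes were also grouped by function. The shares to read these lists against are the 10.4, 11.3, and 9.11% of tested intronic ECRs, and the 5.26, 6.01, and 5.5% of all ECRs, that were higher on days 3, 4, and 5, and no list was tested against them. Of 29 members in 21 genes of RNA processing, 24 were tested, and 2, 3, and 2 were higher on days 3, 4, and 5 with none lower. CLK3, a kinase of splicing factors (day 5 log2 fold change 1.20), and PTBP2 ECR 3, in the neuronal splicing repressor (1.04), were those higher on day 5. The call for PTBP2 ECR 3 was lost without replicate 2 or 3 of either group (0.93 to 1.04). The median log2 fold change of the list was 0.40, 0.58, and 0.26, beside 0.33, 0.25, and 0.02 over all tested members.

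Zinc-finger genes, most of which encode DNA-binding repressors of repeats and genes, held 51 members in 41 genes. Of the 36 tested, 6, 7, and 6 were higher and 0, 0, and 2 lower on the 3 days, with medians of 0.51, 0.43, and 0.20. ZNF440 (log2 fold change 2.28 on day 5), ZNF708 ECR 1 (1.86) and ECR 2 (1.39), and ZNF93 (1.49) were higher on day 5. Many zinc-finger genes have near copies, which can take or share reads.

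Genes of ubiquitin conjugation held 13 members in 12 genes, 11 of them tested. On days 3, 4, and 5, 1, 2, and 2 were higher and 0, 0, and 2 lower, with medians of 0.21, 0.16, and −0.23. BIRC6 (1.12), which encodes an inhibitor of apoptosis with ubiquitin ligase activity, was among those higher on day 5, and USP37, a deubiquitinase (−1.32), and FBXL5 ECR 1, an F-box protein of iron sensing (−1.03), were lower. The call for FBXL5 ECR 1 was lost without replicate 1 of CTRL cells and without replicate 1 or 2 of hnRNPC-targeted cells (−0.98 to −0.93).

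Nuclear genes of mitochondrial function held 13 members in 13 genes, 11 of them tested, of which 2 were higher on each day and none lower, with medians of 0.26, 0.15, and −0.26. Those higher were COX5A, a subunit of cytochrome c oxidase (0.679, 0.615, and 0.523 CPM in CTRL cells and 2.69, 2.31, and 2.54 in hnRNPC-targeted cells on day 5), and ATP5MC2, a subunit of ATP synthase (3.46, 2.79, and 3.61 CPM and then 12, 10.2, and 10.0). Their log2 fold changes on day 5 were 2.05 and 1.71. Of 8 members in 7 genes of DNA repair and replication, 7 were tested, and 0, 0, and 0 were higher and 0, 1, and 1 lower on days 3, 4, and 5, with medians of 0.22, 0.18, and −0.12. Genes of nucleic acid sensing and the IFN response held 5 members in 4 genes, and none of the 3 tested was called on any day (medians −0.04, −0.13, and −0.00). In CGAS, the cytosolic DNA sensor, ECR 1 had log2 fold changes of −0.74, −0.52, and −0.83 and ECR 2 of 0.86, 0.70, and 0.34, and the ECR of PML had the values of the median.

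The same contrast in ADAR-targeted cells (ADAR+hnRNPC against ADAR) gave 35, 81, and 69 higher and 3, 6, and 35 lower intronic ECRs on days 3, 4, and 5 by the quasi-likelihood test of edgeR with Benjamini-Hochberg adjustment. Of all ECRs, 3.01, 7.16, and 7.63% were higher and 0.475, 1.15, and 5.58% lower. On day 4, 154 members were higher and 3 lower when replicate 1 of ADAR-targeted cells was left out. On day 5, 83 were higher and 25 lower with ECR totals as library sizes, and 63 and 48 with DESeq2 and its size factors. Leaving out replicate 1 or 3 of ADAR-targeted cells or replicate 1 or 2 of doubly targeted cells of day 3 gave 5 lower members on that day. Medians of the members were 0.03, 0.27, and −0.16, and those of all ECRs 0.03, 0.11, and −0.09. On every day 31 members were higher, and 28 were higher on every day in this contrast and in hnRNPC against CTRL, which shares no libraries with it. The share of all ECRs was not taken for these counts either. ECRs 2 and 3 of HELLS and CGAS ECR 1 were the members lower on day 3 (chosen to be named after their values were seen). Of 64 tested hosts of the members higher on day 5, 5 were higher and 2 lower (medians 1.51 for the ECRs and 0.19 for the hosts). Among members not called on that day, 16 of 474 hosts were higher and 11 lower.

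ADAR targeting alone changed few levels. By the quasi-likelihood test of edgeR, 0 intronic ECRs were called on days 3 and 5 (8 and 25 at an unadjusted p under 0.05) and 1 was lower on day 4 (43 at an unadjusted p under 0.05). Of all ECRs, 0.0, 0.0396, and 0.0791% were higher and 0.0, 0.0396, and 0.0% lower on the 3 days. GFP gRNA against CTRL likewise gave 0 calls on days 3 and 5 (14 and 19 at an unadjusted p under 0.05) and 1 lower member on day 4 (23 at an unadjusted p under 0.05), with 0.0, 0.0, and 0.0% of all ECRs higher and 0.0, 0.0396, and 0.0% lower. The day 4 call was the same member in both, POLE2 ECR 2 (chr14:50125413-50128547), named after its values were seen. Its CPM in the 3 CTRL libraries of day 4 was 3.09, 97.3, and 2.20. Replicate 2 alone was high, and without it neither comparison called any member. For ADAR targeting, 3 were called lower when replicate 1 of ADAR-targeted cells was left out, and for GFP gRNA none when any GFP library was. The calls of POLE2 ECR 2 as lower on day 4 after hnRNPC targeting (log2 fold change −3.65) and with IFN-α (−3.75) use the same CTRL libraries.

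IFN-α, which induces antiviral genes, left nearly all intronic ECRs uncalled. By the quasi-likelihood test of edgeR with Benjamini-Hochberg adjustment, 3 were higher and 2 lower on day 4 (0.752 and 0.119% of all ECRs). The 5 members are named after their values were seen. The ECR of NRIR, a noncoding RNA of the IFN response, went from 0.375 to 0.626 CPM in CTRL libraries to 7.77 to 11.3, a log2 fold change of 4.34. That of HSH2D, an adaptor protein of lymphocyte signaling, went from 0.395 to 0.893 CPM to 2.44 to 2.98 (2.11), and that of PML, the organizer of PML nuclear bodies, from 1.38 to 2.06 CPM to 3.64 to 4.26 (1.24). The exons of all 3 host genes were higher as well. The ECR of AUH, an RNA-binding enzyme of leucine breakdown, was lower, at 7.43 to 7.95 CPM against 15.3 to 16.5 in CTRL libraries (−1.06), and POLE2 ECR 2 was the other lower member.

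Whether the response to hnRNPC targeting differed with ADAR targeting was tested by the interaction of both. By the quasi-likelihood test of edgeR with Benjamini-Hochberg adjustment, 0 members differed on day 3 (19 at an unadjusted p under 0.05, and 0.0% of all ECRs in either direction), 1 was higher on day 4 (0.356% of all ECRs higher, 0.0% lower), and 11 were higher and 3 lower on day 5 (2.69 and 0.554% of all ECRs). The member of day 4 was POLE2 ECR 2, with the high CTRL library described above. Without that library none was called on day 4, without replicate 3 of CTRL cells 2, and without replicate 1 of ADAR-targeted cells 5. On day 5, NRIR had 11.5, 15.9, and 21.9 CPM in ADAR+hnRNPC-targeted cells and 0.452 to 0.874 in the other 3 groups, an interaction of 4.82 on the log2 scale (standard error 0.436, adjusted p = 3.21e-11, edgeR). HSH2D had 7.94, 9.80, and 14.5 CPM (interaction 3.69) and PML 7.68, 8.40, and 11.2 (2.45) in the doubly targeted cells. These 3 were also the members higher with IFN-α. Their exons were higher too on day 5 in ADAR+hnRNPC- against ADAR-targeted cells, with log2 fold changes of 4.70 in NRIR, 3.21 in HSH2D, and 2.62 in PML.

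The 8 others with a higher interaction on day 5 ranged from 1.04 to 1.49 and included AZI2, an adaptor of TBK1 in IFN induction (1.36), ALPK1, a kinase that senses a bacterial sugar (1.05), and SENP6 ECR 3, a SUMO protease (1.33). ZNG1B ECR 2 (1.49) and ECR 1 (1.22) lie in a gene with near-identical copies, so their counts are uncertain. Lower interactions were found in RCN3 (−1.27), SPC24 ECR 2 (−1.23), in a kinetochore gene, and FOXK2 (−1.03), in a forkhead factor gene. Fewer members were called without 1 library, 8 when replicate 1 of ADAR-targeted cells of day 5 was left out and 9 without replicate 1 of hnRNPC-targeted cells of day 5. Without replicate 1 of CTRL cells of day 5, 7 were lower. The split of 11 higher and 3 lower became 11 and 0 when no TMM factor was used.

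Summed over all 766 members, intronic ECRs had 3407, 3094, and 2602 CPM in the CTRL libraries of day 3, then 3283, 2957, and 2510, then 3380, 2730, and 2985 on the later days. In hnRNPC-targeted cells the sums were 4324, 4160, and 3098, then 4169, 3181, and 3153, then 3056, 3175, and 3360 CPM. The groups overlapped on each day. On day 3 CTRL cells had a mean of 3034 ± 406 and hnRNPC-targeted cells of 3860 ± 666 (SD, n = 3), and on day 5 these were 3032 ± 328 and 3197 ± 153. Over the 3 days the difference on the log2 scale was 0.23, or 1.17-fold (days 0.34, 0.26, and 0.08, p = 0.0265 by an exact two-sided permutation test within days, 0.1325 after Benjamini-Hochberg adjustment over 5 comparisons). It did not pass after adjustment, and without replicate 1 or 2 of hnRNPC-targeted cells of day 3 the unadjusted p was 0.05325 and 0.051.

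The libraries with the largest sums also had much MALAT1, a nuclear RNA, and the relation over all libraries was not tested. MALAT1 ranged from 628 to 1935 CPM in study 1, and the 3 libraries with the largest sums (hnRNPC-targeted cells of day 3, replicates 1 and 2, and of day 4, replicate 1) had 1935, 1766, and 1900 CPM of it. Its part in the differences of sums was not tested. As a ratio to the sum over ECRs that overlap a 3′ UTR in the same library, intronic ECRs were 0.29 higher on the log2 scale after hnRNPC targeting (days 0.30, 0.28, and 0.29, p = 0.009 by an exact two-sided permutation test within days, 0.045 after adjustment over 5 comparisons). As a ratio to ECRs outside genes they were 0.14 lower (p = 0.0655 by the same exact test, 0.164 after adjustment).

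For ADAR+hnRNPC against ADAR the log2 difference of sums was 0.16 (exact permutation p = 0.14075, adjusted 0.352), the ratio to the 3′ UTR class 0.29 (p = 0.025, adjusted 0.0625, by the exact permutation test) and the ratio to ECRs outside genes −0.19 (p = 0.02075, adjusted 0.104, by the exact permutation test). ADAR targeting alone gave −0.08 (exact permutation p = 0.436) and GFP gRNA −0.10 (0.2255). IFN-α gave −0.09, with p = 0.7 by the exact permutation test, in which 3 against 3 libraries cannot go below 0.1.

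**Figure D1:**
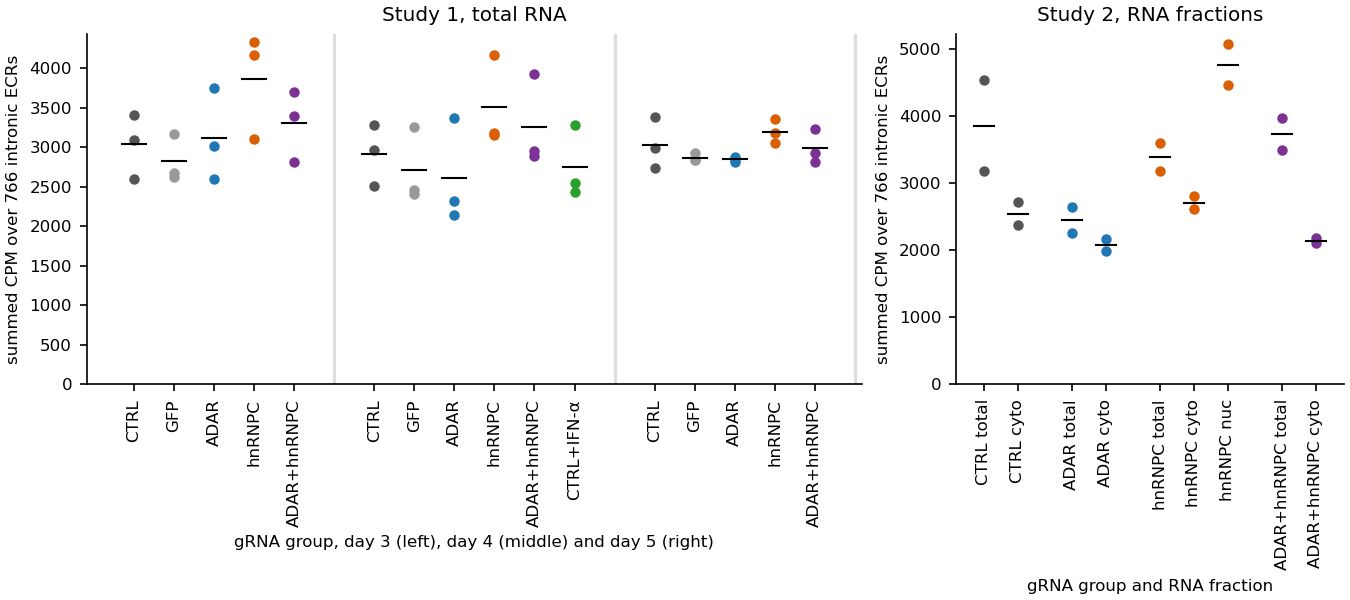
Summed CPM over the 766 intronic ECRs (y axis) per library, by gRNA group and day in study 1 (left) and by gRNA group and RNA fraction in study 2 (right), with 1 point per library and lines at group means. hnRNPC-targeted cells of day 3 (3098 to 4324 CPM) overlap CTRL cells (2602 to 3407), while the nuclear libraries (4461 and 5074 CPM) lie above the cytosolic ones of the same gRNA (2609 and 2810).

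Study 2 asked where these RNAs are in the cell. Intronic ECRs were lower in cytosolic than in total RNA as a class. Taken over the 4 gRNA groups, 209 of 588 tested members were lower and 0 higher in cytosolic RNA by the quasi-likelihood test of edgeR with Benjamini-Hochberg adjustment, beside 16.8% of all ECRs lower and 0.121% higher. The median log2 ratio of cytosolic to total RNA was −0.69 over the members, 0.08 over ECRs with a 3′ UTR, and −0.32 over ECRs outside genes. With ECR totals as library sizes the member median was −0.51 and that of all ECRs moved from −0.17 to 0.01. Exons of the hosts of these 209 members were near 0 (median −0.05 beside −1.40 for the ECRs), with 13 of 195 lower. Among members not called, 15 of 345 hosts were lower.

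In hnRNPC-targeted cells, 294 members were lower and 2 higher in cytosolic than in nuclear RNA (27.4 and 3.12% of all ECRs), or 5 higher without replicate 2 of the cytosolic libraries, with a median of −1.0 (3′ UTR class 0.10). The 2 higher ones, named after their values were seen, lay in MAP3K5, a stress kinase gene, and MAP4K3-DT, a noncoding gene. With ECR totals as library sizes, 215 were lower and 14 higher and the member median was −0.65. Of the members, 207 were lower in both comparisons, which share the cytosolic libraries of hnRNPC-targeted cells. The share of all ECRs lower in both was not taken. The fractions differed in MALAT1 (2264 to 2582 CPM in nuclear and 647 to 929 in cytosolic RNA of hnRNPC-targeted cells), and MT-ND1 was 1.03 to 2.89 CPM in all cytosolic libraries.

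The lowest ratio was that of HELLS ECR 1. It had 1.45 to 6.33 CPM in the 8 total RNA libraries, 0.236 to 0.849 in the 8 cytosolic ones, and 11.1 and 8.19 in nuclear RNA, a log2 ratio of −2.87 (standard error 0.206, adjusted p = 2.86e-09 from the quasi-likelihood test of edgeR with Benjamini-Hochberg adjustment) beside 0.23 for HELLS exons. CELF2, an RNA-binding splicing regulator (−2.80, exons 0.55), the noncoding gene ENSG00000289405 (−2.68), and PPIL2, a nuclear cyclophilin with a U-box (−2.57, exons −0.56), came next. Total and cytosolic libraries did not overlap in HELLS ECR 1.

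The highest ratios were small, and none was called. XYLB had 0.63, HELLS ECR 3 had 0.62, MAP4K3-DT 0.60, and TERF2, a telomere-binding protein gene, 0.56. ECRs of 1 gene thus differed. In HELLS, ECR 2 (log2 ratio 0.44) had 5.53 to 18.9 CPM in total and 5.80 to 22.6 in cytosolic RNA, whereas ECR 1 was nearly lost from the cytosolic fraction.

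In total RNA of study 2, hnRNPC targeting gave 13 higher and 8 lower members (1.3 and 0.81% of all ECRs), and in cytosolic RNA 26 higher and 1 lower (2.11 and 0.121%), by the quasi-likelihood test of edgeR with Benjamini-Hochberg adjustment. The lower member of cytosolic RNA was CGAS ECR 1 (log2 fold change −1.16), named after its values were seen. Counts in total RNA rested on single libraries, with 7 higher and 42 lower without replicate 1 of CTRL total RNA and 8 and 2 without replicate 2 of hnRNPC total RNA. Without replicate 2 of CTRL total RNA, which stood apart, 25 were higher and 0 lower, and without replicate 1 of hnRNPC total RNA 6 were higher. In cytosolic RNA, 8 were higher and 1 lower without replicate 1 of CTRL cells, and 13 and 0 without replicate 1 of hnRNPC-targeted cells.

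For ADAR+hnRNPC against ADAR, 134 members were higher and 0 lower in total RNA (9.64 and 0.081% of all ECRs), with a median of 0.61 (3′ UTR class 0.03), and 20 higher and 2 lower in cytosolic RNA (1.5 and 0.081%). Without replicate 2 of either group, 67 were higher in total RNA. In cytosolic RNA, 7 and 12 were called without replicates 1 and 2 of ADAR-targeted cells, and 12 and 10 without replicates 1 and 2 of doubly targeted cells, all of them higher. MALAT1 differed between the groups of total RNA as well, at 1986 and 2520 CPM in doubly targeted and 913 and 797 in ADAR-targeted cells, and its part in the 134 calls was not tested. The 2 lower members of cytosolic RNA were HELLS ECR 2 and the ECR of RUBCNL, named after their values were seen.

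Of the 82 members higher on at least 1 day of study 1, 75 were tested in study 2. Of these, 23 were called higher in cytosolic RNA and 12 in total RNA of hnRNPC-targeted cells, and 51 and 18 in total and cytosolic RNA of ADAR+hnRNPC- against ADAR-targeted cells. PPP6C had 0.385 and 0.939 CPM in CTRL and 3.58 and 2.83 in hnRNPC total RNA, 0.222 and 0.914 and then 3.81 and 2.46 in cytosolic RNA, and 6.64 and 5.61 in nuclear RNA. MIGA1 had 3.32 and 3.74 CPM in cytosolic RNA of CTRL cells and 14.8 and 11.8 in that of hnRNPC-targeted cells, above the 6.72 and 7.13 in nuclear RNA. Log2 fold changes in cytosolic RNA were 2.48 in PPP6C, 2.31 in BRD8, 1.91 in MIGA1, and 1.38 in PSPH. The 75 tested members had a median log2 ratio of cytosolic to total RNA of −0.58, and 21 of them were called lower in that comparison. Of all tested intronic ECRs 35.5% were lower there, and of all ECRs 16.8%.

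Summed over libraries, intronic ECRs had 3176 and 4543 CPM in total and 2372 and 2718 in cytosolic RNA of CTRL cells, 3594 and 3175 and then 2810 and 2609 in hnRNPC-targeted cells, 2649 and 2262 and then 1989 and 2165 in ADAR-targeted cells, and 3494 and 3966 and then 2102 and 2185 in ADAR+hnRNPC-targeted cells. In each gRNA group both total libraries were above both cytosolic ones. The log2 difference was −0.48, or 0.715-fold (p = 0.00154 by an exact two-sided permutation test within gRNA groups, the smallest it can give, 0.00193 after adjustment over 5 comparisons). The ratio to the 3′ UTR class was −0.53 by the same exact test (p = 0.00154), and the ratio to ECRs outside genes 0.06 (exact permutation p = 0.167).

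Editing was summed as edited reads over all reads on the retained sites of the members, which had 29923 to 104144 reads per library in study 1 and 72880 to 153683 in study 2. At the smallest number of reads in study 1, the Wilson interval at 95% ran from 15.8 to 16.6%, which covers counting error only. Sites were retained by their editing in at least 1 group of these same libraries, so they enter through groups in which editing is high. Levels and differences of editing on retained sites, here and below, and their p-values describe sites chosen in this way. CTRL libraries of days 3, 4, and 5 had 15.8, 16.0, and 18.4%, then 16.2, 16.5, and 17.0%, then 15.7, 17.0, and 16.2%. ADAR-targeted libraries had 8.57, 8.34, and 8.82%, then 7.93, 8.16, and 8.30%, then 7.49, 7.66, and 8.20%. The groups were far apart on each day. Editing was 8.36 percentage points lower in ADAR-targeted cells (days −8.13, −8.44, and −8.51, p = 0.00025 by an exact two-sided permutation test within days, the smallest it can give, 0.000625 after adjustment over 5 comparisons).

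With hnRNPC targeting, editing of intronic ECRs was 17.9, 18.1, and 19%, then 18.4, 19.7, and 20.9%, then 20.6, 19.3, and 18.1% on the 3 days, above all CTRL libraries of the same day on days 4 and 5. The difference was 2.59 points (days 1.63, 3.11, and 3.03, p = 0.00075 by the exact permutation test, 0.00125 after adjustment). Such sums weight members by reads, and reads on members changed with hnRNPC targeting, as given above for the sites of BRD8. The part of shifts in reads between members in this difference was not tested. ADAR+hnRNPC-targeted cells had 9.97, 9.58, and 10.7%, then 9.82, 9.85, and 9.98%, then 12.3, 12.2, and 12.8%, which was 8.33 points below hnRNPC-targeted cells (days −8.27, −9.80, and −6.91, exact permutation p = 0.00025). GFP gRNA gave −0.17 points (exact permutation p = 0.6465). IFN-α libraries had 21.4, 24.2, and 27.2%, which was 7.72 points above CTRL cells of day 4 (exact permutation p = 0.1, the smallest that 3 against 3 libraries allow).

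Editing of intronic ECRs was compared with that of the 3′ UTR class in the same libraries, a comparison chosen after seeing the data. In CTRL cells means were 16.7, 16.6, and 16.3% for intronic ECRs and 13.7, 13.5, and 13.5% for the 3′ UTR class on days 3, 4, and 5, and in ADAR-targeted cells 8.58, 8.13, and 7.79% and 5.55, 5.25, and 5.38%. This order depends on the sites. Over all deposited sites of study 1, CTRL libraries had 3.97 to 4.84% in intronic ECRs and 4.51 to 5.13% in the 3′ UTR class, lower in the intronic ECRs in 9 of 9 libraries. In study 2, with retained sites, total RNA of CTRL cells had 19 and 16.9% beside 21.9 and 20.2% in the 3′ UTR class, and cytosolic RNA 23.3 and 23.3% beside 22.3 and 22.6%. On the scale of log2 odds, the ADAR effect was 0.30 less negative in intronic ECRs in the comparison with CTRL cells (days 0.34, 0.32, and 0.25, exact permutation p = 0.00025, adjusted 0.000625) and 0.15 less negative in that of ADAR+hnRNPC- with hnRNPC-targeted cells (days 0.27, 0.17, and 0.01, exact permutation p = 0.00225, adjusted 0.00375), and the hnRNPC effect 0.17 more positive (exact permutation p = 0.00025). With IFN-α the intronic change was 0.55 smaller (exact permutation p = 0.1, the smallest possible). The GFP difference was 0.00 (exact permutation p = 0.784).

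Members were also tested one by one, as log2 odds ratios over the 1166 ECRs with at least 20 reads on sites in every library, 199 of them intronic. ADAR targeting lowered editing in 120, 113, and 122 intronic ECRs on days 3, 4, and 5 by the quasi-likelihood test of edgeR with Benjamini-Hochberg adjustment, and raised it in none. Of all 1166 ECRs, 68.4, 71.4, and 72.0% were lower and 0.0858, 0.0, and 0.0858% higher. In ADAR+hnRNPC- against hnRNPC-targeted cells, 105, 130, and 53 were lower (62.5, 71.4, and 26.0% of all ECRs, with 0.0, 0.0858, and 0.0% higher). Without replicate 1 of hnRNPC-targeted cells of day 5 the last count was 34. Member medians were −1.18, −1.18, and −1.30 for ADAR targeting and −1.06, −1.24, and −0.77 for ADAR+hnRNPC against hnRNPC, beside −1.43, −1.51, and −1.52 for ADAR targeting in the 3′ UTR class.

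TRIT1 had the most reads on editing sites. Its editing was 12.3 to 14.5% in CTRL libraries, 4.15 to 5.62% in ADAR-targeted libraries and 30.2, 32.1, and 35.8% with IFN-α, and the 3 ranges did not overlap. The log2 odds ratio of ADAR targeting was −1.63 on day 5 (standard error 0.114, adjusted p = 3.12e-19 from the quasi-likelihood test of edgeR with Benjamini-Hochberg adjustment) and that of IFN-α 1.63. In VOPP1 ECR 1, in a gene for a vesicular protein, CTRL libraries had 13.5 to 18.9%, ADAR-targeted libraries 4.79 to 6.38%, and IFN-α libraries 18.1, 27.9, and 32.6%, with a log2 odds ratio of −1.69 for ADAR targeting on day 5. PNPLA3, a lipase gene, had 10.3 to 13.5% and 3.29 to 5.68% (−1.57). The noncoding gene ENSG00000253821 was also among the members with the most reads, but the change of its ECR 1, from 14.4 to 20.4% in CTRL to 8.47 to 11.0% in ADAR-targeted libraries, stayed under the threshold of size (−0.91). On day 5 its log2 odds ratio after hnRNPC targeting was 0.72, also under that threshold.

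The largest falls of editing in percentage points were in VOPP1 ECR 1 and 3 other members. PLXNB3-AS1, an antisense noncoding RNA whose counts were too low for a test of level, had 26.6 to 32.5% in CTRL and 15.6 to 22.7% in ADAR-targeted libraries (log2 odds ratio −1.07 on day 5), a call lost without replicate 2 of ADAR-targeted cells of day 5, at −0.996. SPG7 ECR 1, in a gene for a mitochondrial protease, had 12.9 to 17.9% and 3.96 to 7.61% (−1.89), and SLC20A2, a phosphate transporter gene, 16.1 to 21.6% and 6.29 to 8.55% (−1.36). CTRL and ADAR-targeted libraries did not overlap in any of these.

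After hnRNPC targeting on day 5, 10 members were higher and 0 lower in editing (3.52 and 0.0858% of all ECRs) by the quasi-likelihood test of edgeR with Benjamini-Hochberg adjustment, with a member median of 0.24. Without replicate 1 of CTRL or of hnRNPC-targeted cells of day 5, 5 were higher, and without replicate 2 of the latter 6. GFP gRNA on day 5 gave 0 (13 at an unadjusted p under 0.05, and 0.0% of all ECRs higher and 0.0% lower). IFN-α raised editing in 33 of the 199 tested members (16.6%) and lowered it in 0. Of all ECRs, 33.5% were higher and 0.0858% lower, and of the 3′ UTR class 54.6% were higher. In PCCB, editing was 40.8, 40.2, and 41.6% with IFN-α and 18.7, 16.7, and 20.9% in CTRL libraries of day 4, a log2 odds ratio of 1.59.

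In study 2, editing of intronic ECRs was higher in cytosolic RNA. CTRL cells had 19 and 16.9% in total and 23.3 and 23.3% in cytosolic RNA, hnRNPC-targeted cells 19.5 and 20.03% and then 23.7 and 23.9%, ADAR-targeted cells 7.60 and 7.33% and then 8.37 and 8.12%, and ADAR+hnRNPC-targeted cells 7.93 and 6.91% and then 9.31 and 8.57%. Both cytosolic libraries were above both total libraries in each gRNA group. The difference was 2.92 points (5.33 in CTRL, 4.04 in hnRNPC-, 0.775 in ADAR-, and 1.52 in ADAR+hnRNPC-targeted cells, p = 0.00154 by an exact two-sided permutation test within gRNA groups, the smallest it can give, 0.00193 after adjustment over 5 comparisons). Nuclear RNA of hnRNPC-targeted cells had 17.6 and 20.01%. Relative to the 3′ UTR class the cytosolic difference was 0.28 larger on the log2 odds scale (p = 0.00154 by the same exact permutation test). These sums weight members by reads, and TRIT1 alone had 9201 to 23763 reads per library. In CTRL cells its editing was 24.1 and 21.8% in total and 23.5 and 24.8% in cytosolic RNA. That of ENSG00000253821 ECR 1 was 19.2 and 19.7% and then 25.8 and 26.5%. The part of shifts in reads between members was not tested.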

How the data were processed

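RNA was sequenced from stranded, ribosomal RNA-depleted libraries. The authors aligned reads with STAR 2.5.4a to GRCh37 and deposited raw counts of uniquely mapped reads per gene and per ECR, whose strand setting is not given in the sources used here. They also deposited editing per site as a percent of reads, with read counts beside it. ECR intervals were set against GENCODE genes on GRCh37, in a newer release than the authors used. ECRs with an average log2 CPM of at least 4.5, scaled to ECR totals, were tested (the limit is the study's, whose methods name gene totals as library sizes) with edgeR 4.0.16 (quasi-likelihood, gene totals with TMM factors as library sizes, Benjamini-Hochberg adjustment over all ECRs). Editing was tested on edited and unedited read counts with a term per library. Retained sites had, in at least 1 group, 10 or more reads and 5% or more editing in all libraries and 10% or more in 2 of them. Sums were compared by exact permutation within days or gRNA groups. The fits were tested on simulated data.

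The members and gene lists were chosen with earlier results of these data known. Named members were, for hnRNPC against CTRL, the 8 higher and 4 lower with the largest day 5 change and no overlap on any day, then those in 6 listed genes with introns that the study examined, the 5 with the most reads on sites, the 4 with the largest fall of editing (at least 200 reads), the 4 highest and 4 lowest cytosolic to total ratios, and up to 4 examples per host gene list. Some members and sequences that this rule selects are not reported here. Same-numbered libraries deviated together in study 1 (all 3 correlations above 0.1 in 13 of 16 group pairs, range −0.17 to 0.825) but not throughout, and study 2 has 2 libraries a group, so numbers were not used as pairs in the results given. No 2 replicates agreed within sampling noise. Alternatives tried were DESeq2 1.42.0, limma-voom (limma 3.58.1), other library sizes and filters, the replicate block, GFP gRNA as control, the exon definition, and leaving out each library.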

Additional observations from a re-analysis of the deposited data

Results flagged for a closer look

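The response of intronic ECRs to hnRNPC targeting differed with ADAR targeting, by the interaction term of edgeR's fit over all ECRs, in 1 member on day 4 and in 14 members on day 5. The member of day 4 was POLE2 ECR 2, whose CPM in the CTRL libraries of that day was 3.09, 97.3, and 2.20. Of the 14 members of day 5, NRIR, HSH2D, and PML had the largest interactions (4.82, 3.69, and 2.45 on the log2 scale).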

How the results depend on the processing

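Under alternatives that keep all libraries, 293 values were taken as unchanged. They kept their direction and their side of the threshold, or a count within 1.5 times. A value above p = 0.05 (exact permutation) that changed sign was also taken as unchanged if it moved by less than the SD of the second group. A further 26 counts moved more, 2 values came to pass the threshold, and none that passed it reversed. With the replicate block, the sum over intronic ECRs in ADAR+hnRNPC against ADAR (0.16) and the ratio to ECRs outside genes in hnRNPC against CTRL (−0.14) passed p = 0.05 (exact permutation p = 0.0156 and 0.00391), and no other call changed its side. The block is not used above because 3 of the 16 group pairs of study 1 had a correlation at or under 0.1 (hnRNPC against CTRL on day 5, where 6 of 6 libraries correlated best with their own number, ADAR+hnRNPC against ADAR on day 5, 5 of 6, and GFP against CTRL on day 3, 3 of 6). The ratios to ECRs outside genes, editing from all deposited sites, and the comparison of log2 odds were chosen after seeing the data.

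Without the filter on low counts, 62 members were called in ADAR+hnRNPC against ADAR on day 3 (38 with it). With limma-voom, and with only the compared groups in the fit, 0 were called for ADAR and 0 for GFP gRNA on day 4, and with those fits and DESeq2 0 for the interaction on day 4. With exons of all transcripts, which leaves fewer members, 3 were called for IFN-α. At 100 reads or more per library, which leaves fewer members, editing was called in 38, 35, and 39 members for ADAR targeting on days 3, 4, and 5, in 27, 42, and 15 for ADAR+hnRNPC against hnRNPC, in 3 for hnRNPC on day 5, and in 12 for IFN-α. From all deposited sites, which adds members, the counts were 422, 445, and 448, then 375, 443, and 189, then 36 and 86. By limma on the empirical logit, editing was called in 4 members for hnRNPC on day 5. Other causes were not tested.

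Leaving out 1 library at a time, the log2 difference of sums ranged from 0.18 to 0.28 in hnRNPC against CTRL and from 0.12 to 0.23 in ADAR+hnRNPC against ADAR, where it passed the exact permutation test without replicate 1 of ADAR-targeted cells of day 4. The ratio to the 3′ UTR class in ADAR+hnRNPC against ADAR ranged from 0.24 to 0.36, the ratio to ECRs outside genes from −0.18 to −0.10 in hnRNPC against CTRL, from −0.23 to −0.15 in ADAR+hnRNPC against ADAR, and from 0.035 to 0.075 in cytosolic against total RNA. Counts of called members ranged from 69 to 157 in ADAR+hnRNPC against ADAR on day 4, from 0 to 3 for ADAR and 0 to 1 for GFP gRNA on day 4, from 0 to 5 and 8 to 16 for the interaction on days 4 and 5, from 10 to 49 and 9 to 40 for hnRNPC in total and cytosolic RNA, and from 67 to 170 and 7 to 12 for ADAR+hnRNPC against ADAR there. Counts of members called for editing ranged from 34 to 57 in ADAR+hnRNPC against hnRNPC on day 5 and from 5 to 13 in hnRNPC against CTRL on day 5. Low counts limit single members, with a median of 2.45 CPM, and 2 libraries per group limit study 2.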
